A study of Mus musculus with 6 samples.

Results

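The genes described here carry fatty acids into heart muscle, store them as triglyceride and break them down in mitochondria. They are 42 genes listed by known function, with no measured value in the rule, out of 24602 genes in the deposited table. The list was nevertheless chosen with earlier results of these data known. Each name matched a single row. Poly(A)-selected RNA of the left ventricle was sequenced from wild type mice 5 weeks after a sham operation (3 libraries) or after TAC surgery, a transverse aortic coarctation that loads the ventricle with pressure (3 libraries). The sources used here give no age, sex or strain. Nor do the labels say that the libraries are from different mice, and p-values then measure only the spread between these libraries, which may be technical. The samples are whole tissue, so fewer cells of a type and less RNA per cell cannot be told apart.

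The adult heart draws most of its energy from fatty acids. Lipoprotein lipase frees them from circulating triglyceride, membrane and binding proteins bring them into the cell, and acyl-CoA synthetases activate them. The acyl groups are then either esterified into lipid droplets or passed by the carnitine shuttle into mitochondria, where each turn of beta-oxidation shortens the chain and hands electrons to the respiratory chain.

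Each library held between 64023153 and 69992502 estimated counts in all. Genes of the mitochondrial chromosome took between 14.8% and 19.2% of them in the sham libraries and between 22.6% and 29.2% in the TAC libraries. For that reason values are compared between groups as CPM, counts scaled to a common library size with TMM factors. Levels are compared between genes as FPKM, which is scaled for length. The sources used here do not state which length. For Hadha the exonic bases (8730) exceed those of the longest transcript (4017), so levels between genes depend on that choice. TAC replicate 3 stood furthest from its own group, with a mean correlation of 0.956 in log2 CPM against 0.966 and 0.970 for TAC replicates 2 and 1. Ventricular cardiomyocyte markers were abundant in every library, and their summed level ran from 79727 to 90823 CPM in sham and from 59522 to 79104 CPM in TAC. None of the 12 passed the test.

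Of the 42 genes, 41 reached an average of 1 FPKM across the libraries and were tested. The exception was Acsl3, an acyl-CoA synthetase gene, at 0.194 FPKM. A gene passed when its p from edgeR's quasi-likelihood test, adjusted by Benjamini-Hochberg over all 8795 tested genes, was under 0.05. By that rule 5 of the 41 fell in TAC (12.2%), against 2.29% of all tested genes. These were the fatty acid transporter gene Slc27a1, the beta-oxidation genes Acaa2 and Hadh, the triglyceride synthesis gene Dgat2 and the thioesterase gene Acot1. A single member rose, the fatty acid receptor gene Cd36 (2.44%), against 4.71% of all tested genes. The other 35 did not pass.

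Most of the members that did not pass also lay lower in TAC. The log2 fold change was below 0 for 28 of 41 members (68.3%) and for 50.8% of all tested genes, with a median of -0.27 over the members and -0.01 over all tested genes. All 3 TAC libraries lay below all 3 sham libraries in 18 members (43.9%), against 17.1% of all tested genes. The reverse held for 7 members (17.1%), against 17.7% of all tested genes. At an unadjusted p under 0.05 there were 16 lower and 6 higher members, 39.0% and 14.6% of the 41, against 11.9% and 16.2% of all tested genes. By role, the log2 fold change was above 0 for 5 of 6 uptake and binding genes, and below 0 for 7 of 7 storage and lipolysis genes, 5 of 5 genes of the carnitine shuttle and malonyl-CoA, and 9 of 13 beta-oxidation genes.

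**Figure D1:**
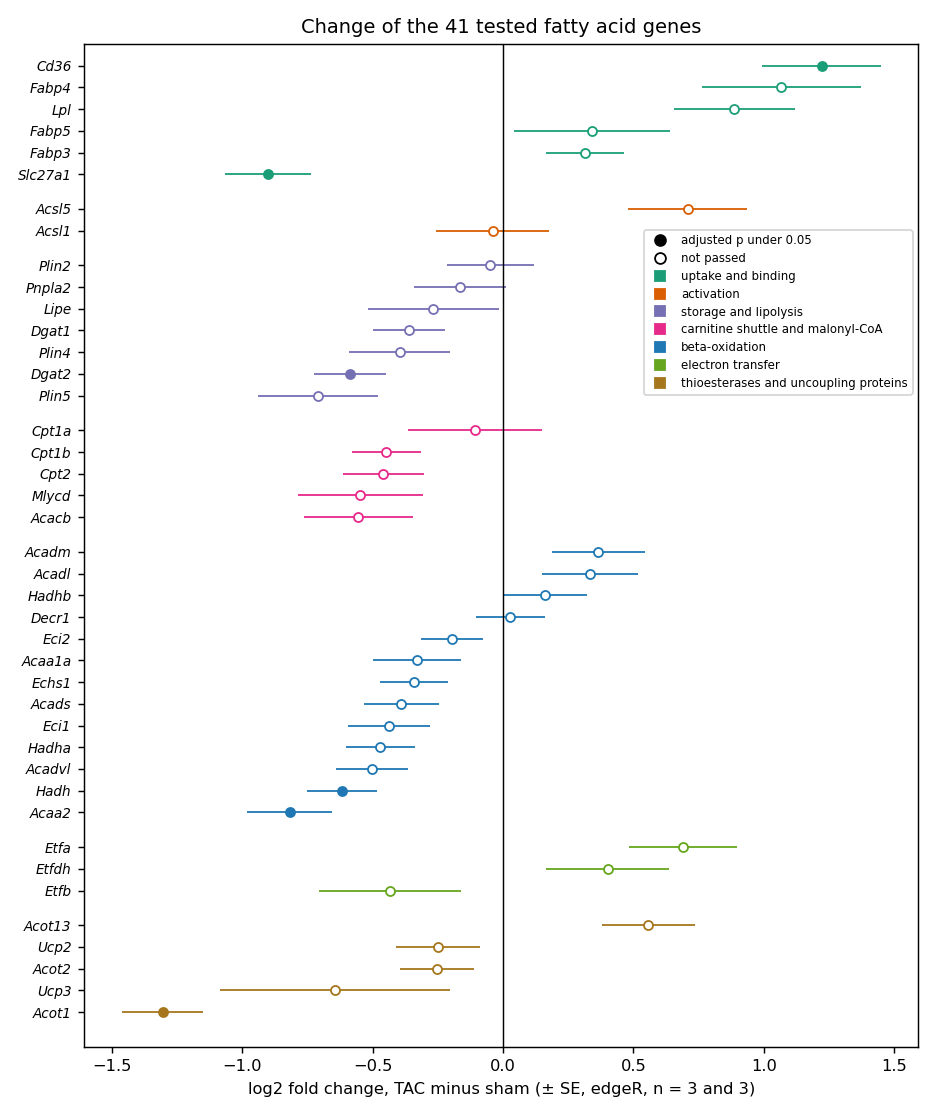
Log2 fold change (TAC minus sham, x axis) of the 41 tested genes, with bars of 1 SE, grouped and coloured by role. Filled points passed at an adjusted p under 0.05: Cd36 at 1.22 lies to the right, and Slc27a1, Dgat2, Hadh, Acaa2 and Acot1 lie between -0.59 and -1.31.

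The levels spanned 4 orders of magnitude between genes. Fabp3, the fatty acid binding protein of heart muscle cytosol, was the most abundant, at 2434 ± 135 FPKM in the sham libraries and 2726 ± 211 FPKM in the TAC libraries (SD, n = 3). Acaa2 (mean over all libraries 821 FPKM), Etfb (807 FPKM) and Acadvl (468 FPKM) followed. At the lower end were the liver-type carnitine palmitoyltransferase gene Cpt1a at 3.96 FPKM and the synthetase gene Acsl5 at 1.75 FPKM. Together the 42 genes took between 1.78% and 1.88% of all estimated counts in the sham libraries and between 1.42% and 1.57% in the TAC libraries. Leaving mitochondrially encoded genes out of the total, the shares were 2.18% to 2.26% and 1.98% to 2.03%. The groups did not overlap on either base.

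**Figure D2:**
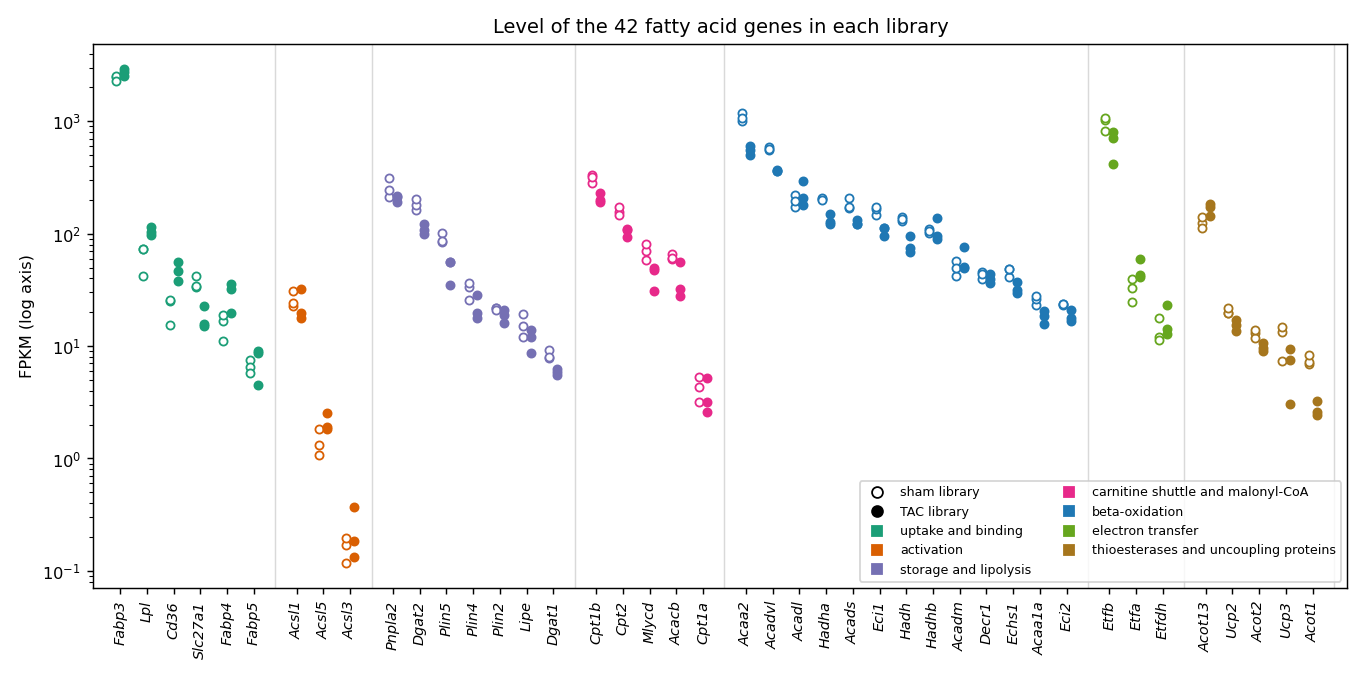
FPKM (log axis) of the 42 genes in each library, open circles for sham and filled circles for TAC, grouped and coloured by role and ordered by mean level within a role. Fabp3 lies highest in every library and Acsl3, which was not tested, lowest.

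Uptake and binding genes moved in opposite directions. Cd36, which encodes the scavenger receptor that takes long-chain fatty acids into cardiomyocytes and capillary endothelium, measured 93.0, 54.2 and 94.0 CPM in sham replicates 1 to 3 and 194, 159.6 and 208 CPM in TAC replicates 1 to 3. Every TAC library lay above every sham library, and sham replicate 2 was the lowest of all. Cd36 was 2.33-fold higher in TAC (log2 fold change 1.22 ± 0.23, SE; edgeR adjusted p = 0.0275). With trends over GC content and length removed Cd36 did not pass (0.58, adjusted p = 0.0638), nor did it with no filter on FPKM (1.12, adjusted p = 0.0548). Slc27a1, on chromosome 8 (71568882 to 71587301 in GRCm38), encodes the transport protein FATP1, which also activates fatty acids at the membrane. It measured 201, 195 and 248.5 CPM in sham and 107, 103 and 136 CPM in TAC. The groups were separate, with replicate 3 the highest in each, and Slc27a1 was 1.87-fold lower in TAC (-0.90 ± 0.17, adjusted p = 0.0273). Cd36 passed in 3 of 6 fits without 1 library, and not without sham replicate 2 (adjusted p = 0.107), sham replicate 3 (adjusted p = 0.0698) or TAC replicate 1 (adjusted p = 0.0870). Slc27a1 passed without sham replicate 1 or TAC replicate 3, and its adjusted p was 0.0618 to 0.116 without any of the others.

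Lpl, which encodes lipoprotein lipase, measured 792, 433 and 782 CPM in sham and 1265, 1208 and 1239 CPM in TAC. The TAC libraries lay close together and above all sham libraries, but the test was not passed (0.89 ± 0.23, edgeR adjusted p = 0.0565). Sham replicate 2 was again the lowest, and without it the log2 fold change was 0.65. Without TAC replicate 3 Lpl passed (0.89, adjusted p = 0.0360). With GC and length trends removed Lpl had 0.49 (adjusted p = 0.138). Fabp4, the binding protein of adipocytes and capillary endothelium, measured 78.3, 49.2 and 87.5 CPM in sham and 171, 189.5 and 90.3 CPM in TAC (1.07 ± 0.30, adjusted p = 0.0685). TAC replicate 3 was just above the highest sham library, and without it Fabp4 passed (1.33, adjusted p = 0.00933). With GC and length trends removed Fabp4 had 0.65 (adjusted p = 0.24). Fabp3 measured 2105, 2058 and 1921 CPM in sham and 2426, 2835 and 2303 CPM in TAC (0.31 ± 0.15, adjusted p = 0.211). Its groups were separate in CPM and overlapped in FPKM. Fabp5, the epidermal-type binding protein gene, ran from 20.9 to 27.6 CPM in sham and from 16.4 to 37.6 CPM in TAC, with TAC replicate 3 below every sham library (0.34 ± 0.30, adjusted p = 0.504). Without that library Fabp5 passed (0.64, adjusted p = 0.0243).

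Cd36, Lpl and Fabp4 are also expressed outside cardiomyocytes, and markers of those cells were counted in the same libraries. The 10 endothelial markers summed to 1520, 1411 and 1504 CPM over sham replicates 1 to 3 and to 1940, 1937 and 1120 CPM over TAC replicates 1 to 3. TAC replicates 1 and 2 were thus above every sham library and TAC replicate 3 below. Of the 10, 9 had a log2 fold change above 0 (median 0.25). Of these 1 rose (Tek, a receptor kinase gene), against 4.71% of all tested genes, and none of the 10 fell. Without TAC replicate 3, 6 of the 10 endothelial markers passed as higher in edgeR, against 9.24% of all tested genes. Cd36, Lpl, Fabp4 and Fabp5 passed in that fit too. In TAC replicate 3 itself Cd36 was at its highest (208 CPM), and Lpl (1239 CPM) lay between the other TAC libraries. Fabp4 (90.3 CPM) and Fabp5 (16.4 CPM) were at their lowest of the TAC libraries there. Adipocyte markers were near 0, with 7 genes summing to between 1.34 and 8.39 CPM in sham and between 1.49 and 3.02 CPM in TAC. Estimated counts of the adipokine gene Adipoq were 10, 57 and 64 for sham replicates 1 to 3 and 22, 0 and 37 for TAC replicates 1 to 3. Of the brown adipocyte markers, Elovl3 had 8 counts in 1 library and 0 in the others, and Cidea was expressed in both groups, at 40.5 ± 2.52 CPM (sham) and 41.6 ± 2.88 CPM (TAC, SD, n = 3). The 10 macrophage markers summed to between 506 and 579 CPM in sham and between 544.5 and 695 CPM in TAC, and 1 of the 8 tested rose (Lgals3). The 8 fibroblast markers summed to between 412.5 and 624 CPM in sham, and to 654, 614 and 1677 CPM in TAC replicates 1 to 3. Of the 8, 3 rose (Dcn, Lum and Postn), again against 4.71% of all tested genes. With GC and length trends removed Tek and Postn still passed in edgeR. Dcn (adjusted p = 0.0952), Lum (adjusted p = 0.103) and Lgals3 (adjusted p = 0.0554) then did not. The part of other cell types in the uptake genes was not tested.

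A window of 250 bases upstream of a RefSeq start site was available for 33 of the 42 members, as 38 windows. The Cd36 window is shown because Cd36 is the member that rose. It lies inside the annotated span of the gene, at chr5:17835897-17836146 on the minus strand (RefSeq, GRCm38.p6). Capitals mark the motif AGGTCA, the core letters bound by many nuclear receptors, here on the other strand at position -228 from the start site.
Cd36 upstream window: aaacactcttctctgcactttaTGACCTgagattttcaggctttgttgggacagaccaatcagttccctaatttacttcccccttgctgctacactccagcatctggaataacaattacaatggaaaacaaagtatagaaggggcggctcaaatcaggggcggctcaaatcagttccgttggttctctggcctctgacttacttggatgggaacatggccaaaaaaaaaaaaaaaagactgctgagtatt
On either strand AGGTCA was found in 8 of the 38 member windows (21.1%) and in 14.0% of all 32851 windows of that length. The repeat known as DR1, AGGTCA repeated after 1 base and the consensus for PPAR with its RXR partner, and the longer TCAAGGTCA, the consensus for ERR, both contain AGGTCA. Neither was found in the member windows, and they were found in 0.0335% and 0.387% of all windows. The count says only which letters these short windows hold.

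Activation genes did not pass. Acsl1, the main long-chain acyl-CoA synthetase gene of heart, measured 337, 237 and 257 CPM in sham and 241.5, 217 and 349.7 CPM in TAC (log2 fold change -0.04 ± 0.22, edgeR adjusted p = 0.928). TAC replicate 3 was the highest library and TAC replicate 2 the lowest, so the groups overlapped fully. Acsl5, a synthetase of mitochondrial and reticulum membranes, measured 9.15, 6.35 and 5.34 CPM in sham and 10.87, 10.47 and 12.7 CPM in TAC. All TAC libraries lay above the sham libraries (0.71 ± 0.23, adjusted p = 0.0915). It passed in 1 of 6 fits without 1 library, the fit without sham replicate 1 (0.98, adjusted p = 0.0476). In that fit 295 of all 8795 tested genes were higher. In the others the adjusted p of Acsl5 was 0.104 to 0.273. Acsl3 had 0.774, 0.514 and 0.870 CPM in sham and 0.959, 0.696 and 1.67 CPM in TAC.

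Of the 7 storage and lipolysis genes 1 fell, against 2.29% of all tested genes. All 7 had a log2 fold change below 0, but the groups overlapped in 4, and Pnpla2 turned to 0.04 with trends over GC content and length removed. Dgat2, which encodes the enzyme that adds the last acyl chain of triglyceride, measured 519, 550.3 and 637 CPM in sham and 389.5, 359 and 388 CPM in TAC. The groups were separate and Dgat2 was 1.501-fold lower in TAC (log2 fold change -0.59 ± 0.14, edgeR adjusted p = 0.0435). It passed in 1 of 6 fits without 1 library, the fit without TAC replicate 3, and in the others its adjusted p was 0.0702 to 0.153. Nor did it pass with GC and length trends removed (-0.39, adjusted p = 0.102), with no filter on FPKM (adjusted p = 0.0599) or with a filter at 5 FPKM (adjusted p = 0.0715). Its isoenzyme Dgat1 was less abundant, at 8.40 ± 0.7996 FPKM against 182 ± 19.5 FPKM for Dgat2 in sham (SD, n = 3). Dgat1 measured 24.9, 28.1 and 25.1 CPM in sham and 19.9, 21.1 and 19.7 CPM in TAC, again separate (-0.36 ± 0.14, adjusted p = 0.134). The ratio of Dgat2 to Dgat1 in FPKM overlapped between the groups, at 21.8 ± 3.00 in sham and 18.6 ± 1.49 in TAC.

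Plin5, a droplet coat protein of oxidative tissue that tethers droplets to mitochondria, measured 182, 208 and 184 CPM in sham and 138, 138 and 75.0 CPM in TAC (log2 fold change -0.71 ± 0.23, edgeR adjusted p = 0.0926). TAC replicate 3 was the lowest. Without it the difference was smaller and passed (-0.47, adjusted p = 0.0261). Plin4, another droplet coat gene, measured 219, 160.5 and 236 CPM in sham and 147, 133 and 187 CPM in TAC, with overlapping groups (-0.40 ± 0.19, adjusted p = 0.221). Plin2, the coat gene found in most cells, differed by less than the spread, with 74.7 to 79.3 CPM in sham and 57.4 to 86.1 CPM in TAC (-0.05 ± 0.17, adjusted p = 0.880). The triglyceride lipase gene Pnpla2, whose product starts droplet lipolysis, measured 655.5, 721 and 976 CPM in sham and 684, 747 and 669 CPM in TAC (-0.16 ± 0.18, adjusted p = 0.590). Lipe, the hormone-sensitive lipase gene, had 70.3 to 116 CPM in sham and 52.8 to 95.4 CPM in TAC (-0.27 ± 0.25, adjusted p = 0.534). The lipase genes thus overlapped between groups.

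None of the 5 genes of the carnitine shuttle and malonyl-CoA passed, although the groups were separate and lower in 4 of them, against 17.1% of all tested genes. Cpt1b, the muscle-type enzyme that forms acylcarnitine at the outer membrane, measured 985, 1095 and 1105 CPM in sham and 788, 752 and 794 CPM in TAC (log2 fold change -0.45 ± 0.13, edgeR adjusted p = 0.0732). Of its exonic bases 81.4% lie inside a second record on the same strand, Gm44502, which held 237 to 2762 estimated counts in sham and 0 to 242 in TAC. With both records added together Cpt1b had -0.47 ± 0.13 (adjusted p = 0.0647). Without TAC replicate 3 Cpt1b passed (-0.46, adjusted p = 0.0360). Cpt1a, the liver-type isoform, overlapped between groups, with 24.1 to 41.6 CPM in sham and 23.3 to 40.7 CPM in TAC (-0.11 ± 0.26, adjusted p = 0.830). The ratio of Cpt1b to Cpt1a in FPKM was 77.0 ± 24.9 for sham and 60.2 ± 14.7 for TAC (SD, n = 3), so the muscle form predominated in both.

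Cpt2, which returns the acyl group to CoA inside the mitochondrion, measured 383, 403 and 358 CPM in sham and 299.9, 306 and 227 CPM in TAC (log2 fold change -0.46 ± 0.16, edgeR adjusted p = 0.102). Malonyl-CoA inhibits the carnitine palmitoyltransferase of the outer membrane, and the genes for its synthesis and its removal both lay lower in TAC. Acacb, the acetyl-CoA carboxylase gene that makes it in muscle, measured 595, 625 and 599 CPM in sham and 367, 318 and 553 CPM in TAC (-0.55 ± 0.21, adjusted p = 0.127). TAC replicate 3 lay close to the sham libraries, and without it Acacb passed (-0.82, adjusted p = 0.00823). Mlycd, the decarboxylase gene that removes malonyl-CoA, measured 181, 206 and 247 CPM in sham and 165, 173.5 and 94.4 CPM in TAC (-0.55 ± 0.24, adjusted p = 0.177). In Mlycd TAC replicate 3 was the lowest, and without it the log2 fold change was -0.32.

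**Figure D3:**
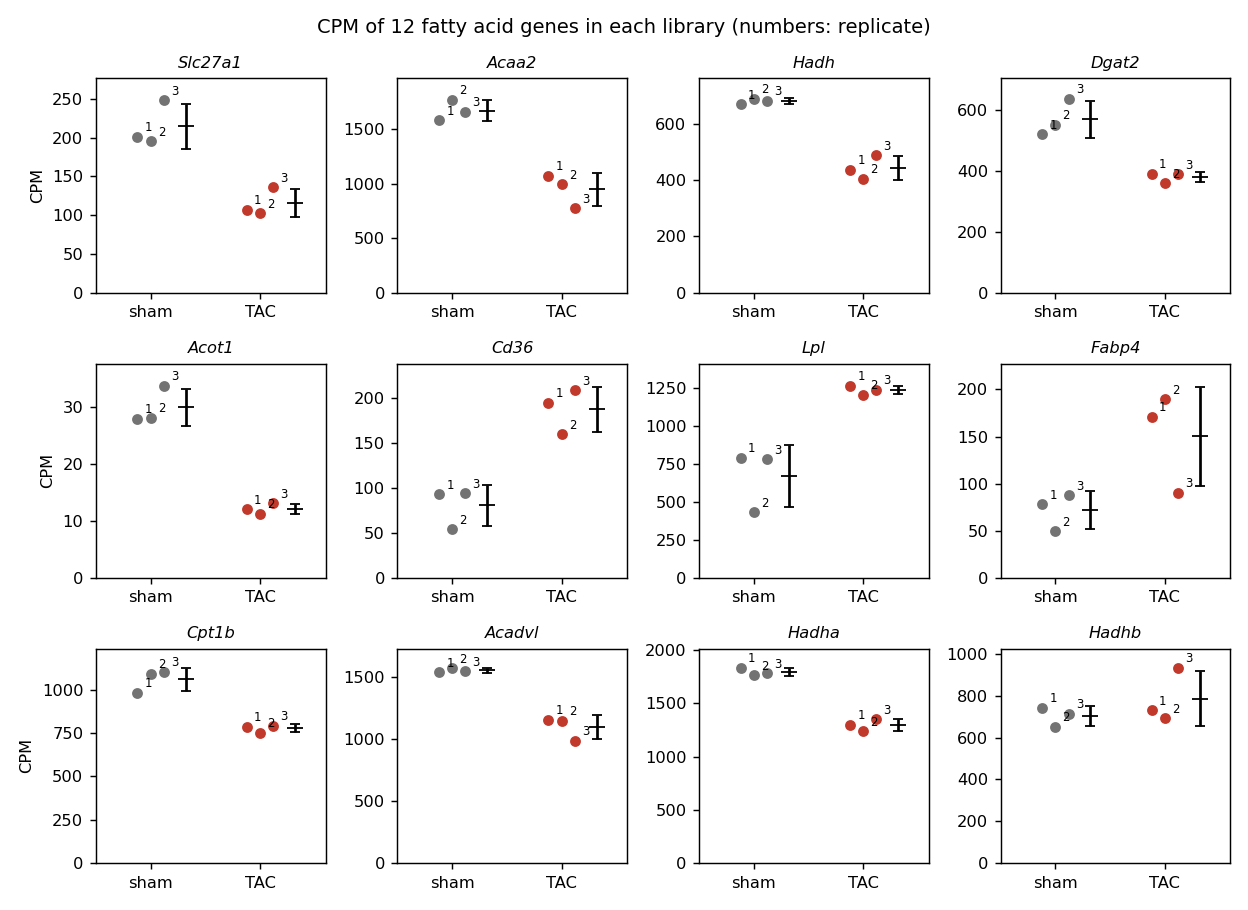
CPM of 12 genes in each of the 6 libraries, grey for sham and red for TAC, with the replicate number beside each point and the group mean ± SD as a bar, each axis starting at 0. In 11 of the panels the groups do not overlap, and in Hadhb they do. The 12 genes are a selection, and over all 41 tested members the groups overlapped in 16. Of all tested genes 17.7% were separate and higher in TAC and 17.1% separate and lower.

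Of the 13 beta-oxidation genes 2 fell, against 2.29% of all tested genes. Acaa2, the mitochondrial thiolase gene of the last step of the cycle, measured 1580, 1769 and 1659 CPM in sham and 1071, 992.5 and 776 CPM in TAC, with separate groups. Acaa2 was 1.76-fold lower in TAC (log2 fold change -0.82 ± 0.16, edgeR adjusted p = 0.0323). Hadh encodes the 3-hydroxyacyl-CoA dehydrogenase for medium and short chains, and measured 668, 688 and 682 CPM in sham and 436, 404 and 488 CPM in TAC. The sham libraries lay within 20 CPM of each other, and Hadh was 1.54-fold lower in TAC (-0.62 ± 0.13, adjusted p = 0.0367). Acaa2 and Hadh each passed in 1 of 6 fits without 1 library, the fit without TAC replicate 3. In the others the adjusted p was 0.0592 to 0.138 for Acaa2 and 0.0744 to 0.149 for Hadh. With no filter on FPKM it was 0.0599 for Acaa2 and 0.0524 for Hadh, and with a filter at 5 FPKM 0.0682 for Hadh.

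The window upstream of Hadh is shown as that of a member that fell, at chr3:131272102-131272351 on the minus strand (RefSeq, GRCm38.p6). None of the motifs searched was found in it, hence no capitals.
Hadh upstream window: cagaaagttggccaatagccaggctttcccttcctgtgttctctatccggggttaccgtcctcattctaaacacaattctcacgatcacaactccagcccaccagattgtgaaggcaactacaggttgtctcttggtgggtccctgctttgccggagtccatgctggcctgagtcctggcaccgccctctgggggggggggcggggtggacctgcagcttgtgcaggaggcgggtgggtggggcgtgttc

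The acyl-CoA dehydrogenases, which take the first electrons from chains of different length, did not share a direction, and the split ran with GC content. Acadvl, for very long chains, measured 1542, 1575 and 1553 CPM in sham and 1158, 1149 and 987 CPM in TAC (log2 fold change -0.50 ± 0.14, edgeR adjusted p = 0.0647). Of its exonic bases 42.9% overlap Dvl2 on the other strand, and the sources used here do not say whether counting was by strand. Without TAC replicate 3 Acadvl passed (-0.43, adjusted p = 0.0400). Acads, for short chains, ran from 396 to 462 CPM in sham and from 282 to 349 CPM in TAC, also separate (-0.39 ± 0.14, adjusted p = 0.123). Acadl, for long chains, measured 459, 341 and 400.3 CPM in sham and 486.5, 419 and 607 CPM in TAC (0.33 ± 0.18, adjusted p = 0.274). Acadm, for medium chains, ran from 163 to 229 CPM in sham and from 228 to 303 CPM in TAC (0.36 ± 0.18, adjusted p = 0.225). Acadl and Acadm thus overlapped between groups, with TAC replicate 3 the highest library in both. Their transcripts are poorer in G and C than those of Acadvl and Acads. The log2 fold changes after removal of GC and length trends were -0.37 (Acadvl), -0.20 (Acads), -0.03 (Acadl) and 0.22 (Acadm), and none passed.

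The trifunctional protein, which carries out the later steps for long chains, is built from the products of Hadha and Hadhb. These genes lie head to head on chromosome 5. Hadha measured 1836, 1767 and 1784 CPM in sham and 1300, 1238 and 1350 CPM in TAC, separate but not passed (log2 fold change -0.47 ± 0.13, edgeR adjusted p = 0.0671). Without TAC replicate 3 Hadha passed (-0.50, adjusted p = 0.0277). Hadhb measured 744, 651.5 and 715.5 CPM in sham and 731, 694 and 936 CPM in TAC, with overlapping groups (0.16 ± 0.16, adjusted p = 0.556). The ratio of Hadha to Hadhb in FPKM, which is free of library scaling, was 1.87, 2.05 and 1.88 in sham and 1.34, 1.35 and 1.09 in TAC. It was lower in all 3 TAC libraries, and with 3 libraries a group the smallest p of an exact two-sided permutation test is 0.1. The Hadhb transcript is poorer in G and C, at 39.1% against 51.3% for Hadha. Once the trends of each library with GC content and length were taken out, the log2 fold changes were -0.49 for Hadhb and -0.39 for Hadha. The 85 bases between the annotated ends of the genes are shown because they separate this head-to-head pair, at chr5:30155163-30155247 on the Hadhb strand (RefSeq window, GRCm38.p6, between GENCODE M21 gene ends).
Stretch between Hadha and Hadhb: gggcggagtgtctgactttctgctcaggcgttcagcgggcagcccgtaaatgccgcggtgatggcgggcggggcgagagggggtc

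The remaining beta-oxidation genes did not pass. Echs1, the short-chain enoyl-CoA hydratase gene, ran from 350.1 to 413 CPM in sham and from 291 to 315 CPM in TAC (log2 fold change -0.34 ± 0.13, edgeR adjusted p = 0.132). Eci1, an isomerase gene needed for unsaturated chains, ran from 321 to 375 CPM in sham and from 210.1 to 281 CPM in TAC (-0.44 ± 0.16, adjusted p = 0.114). Both were separate between groups, as was the related isomerase gene Eci2, from 127 to 134 CPM in sham and from 109 to 120.4 CPM in TAC (-0.20 ± 0.12). Decr1, the dienoyl-CoA reductase gene, ran from 149 to 184 CPM in sham and from 164 to 178 CPM in TAC (0.03 ± 0.13). The peroxisomal thiolase gene Acaa1a overlapped between groups, from 107 to 125 CPM in sham and from 72.0 to 107 CPM in TAC (-0.33 ± 0.17, adjusted p = 0.245). Acaa1a has a close paralog, so its counts are uncertain.

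Electron transfer flavoprotein collects the electrons of the acyl-CoA dehydrogenases. Its alpha subunit gene Etfa measured 75.7, 44.1 and 61.4 CPM in sham and 92.3, 88.5 and 111 CPM in TAC (log2 fold change 0.69 ± 0.21, edgeR adjusted p = 0.0751). The groups were separate, with sham replicate 2 the lowest. With GC and length trends removed Etfa had 0.29 (adjusted p = 0.389). The beta subunit gene Etfb measured 991, 1184 and 1267 CPM in sham and 961, 1088 and 498 CPM in TAC (-0.43 ± 0.27, adjusted p = 0.340). TAC replicate 3 was far below the others, and without it the log2 fold change was -0.16. Of its exonic bases 53.0% lie in a second record on the same strand, Gm45233, and adding both together left the log2 fold change at -0.43. The ratio of Etfb to Etfa in FPKM was 20.7, 42.4 and 32.6 in sham and 16.4, 19.4 and 7.06 in TAC. It was lower in every TAC library, and the transcripts differ in GC content, at 57.1% for Etfb and 45.0% for Etfa. Etfdh, the oxidoreductase gene that passes the electrons on to ubiquinone, measured 138, 88.6 and 87.6 CPM in sham and 124, 113.5 and 178 CPM in TAC (0.40 ± 0.24, adjusted p = 0.307).

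Among thioesterases and uncoupling proteins, Acot1 had the lowest adjusted p of all 41 members. It encodes a cytosolic thioesterase that frees long-chain fatty acids from CoA. Acot1 measured 27.9, 28.1 and 33.7 CPM in sham and 11.99, 11.2 and 13.0 CPM in TAC, 2.47-fold lower (log2 fold change -1.31 ± 0.16, edgeR adjusted p = 0.00993). The groups were far apart relative to their spread, and it passed in 5 of 6 fits without 1 library. Without sham replicate 2 the adjusted p was 0.0561. Acot2, its mitochondrial paralog on the same chromosome, measured 29.6, 25.4 and 31.2 CPM in sham and 24.9, 23.5 and 23.8 CPM in TAC (-0.25 ± 0.14, adjusted p = 0.287). The ratio of Acot1 to Acot2 in FPKM was 0.529, 0.620 and 0.605 in sham and 0.269, 0.267 and 0.307 in TAC, so every TAC library was below every sham library. These paralogs are alike in sequence, and the sources used here do not say how reads shared between them were counted.

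Acot13, a mitochondrial thioesterase of another family, measured 95.4, 82.9 and 107 CPM in sham and 149, 161 and 109 CPM in TAC (log2 fold change 0.56 ± 0.18, edgeR adjusted p = 0.0897). TAC replicate 3 lay just above the highest sham library, and without it Acot13 passed (0.71, adjusted p = 0.0130). Ucp2, an inner membrane carrier gene, measured 144, 135.5 and 155 CPM in sham and 141, 126 and 98.0 CPM in TAC (-0.25 ± 0.16, adjusted p = 0.350). Its muscle relative Ucp3 had the largest SE of the 41, with 43.5, 22.6 and 47.3 CPM in sham and 27.8, 34.9 and 9.90 CPM in TAC (-0.64 ± 0.44, adjusted p = 0.384).

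Libraries differed within groups as well. Sham replicate 2 was the lowest of the sham libraries in 20 of 41 members, including Cd36, Lpl, Fabp4 and Etfa. TAC replicate 3 was the lowest of the TAC libraries in 19 members and the highest in 18. TAC replicate 2 was about as often at an end, as the lowest in 20 and the highest in 15. Without TAC replicate 3, 10 members were lower and 5 higher in edgeR, against 10.1% and 9.24% of all tested genes. Lpl, Fabp4, Fabp5, Plin5, Cpt1b, Acacb, Acadvl, Hadha and Acot13 passed in this fit alone of the 6 without 1 library. They did not pass with all 6 libraries. In DESeq2 on all 6 libraries 10 members were lower and 6 higher, against 7.02% and 11.7% of all tested genes. In limma on log2(FPKM + 1), where the median of all tested genes moved to -0.13, 10 were lower and 1 higher, against 3.84% and 1.98%. Without sham replicate 2 none passed in edgeR, against 12 of all tested genes.

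**Figure D4:**
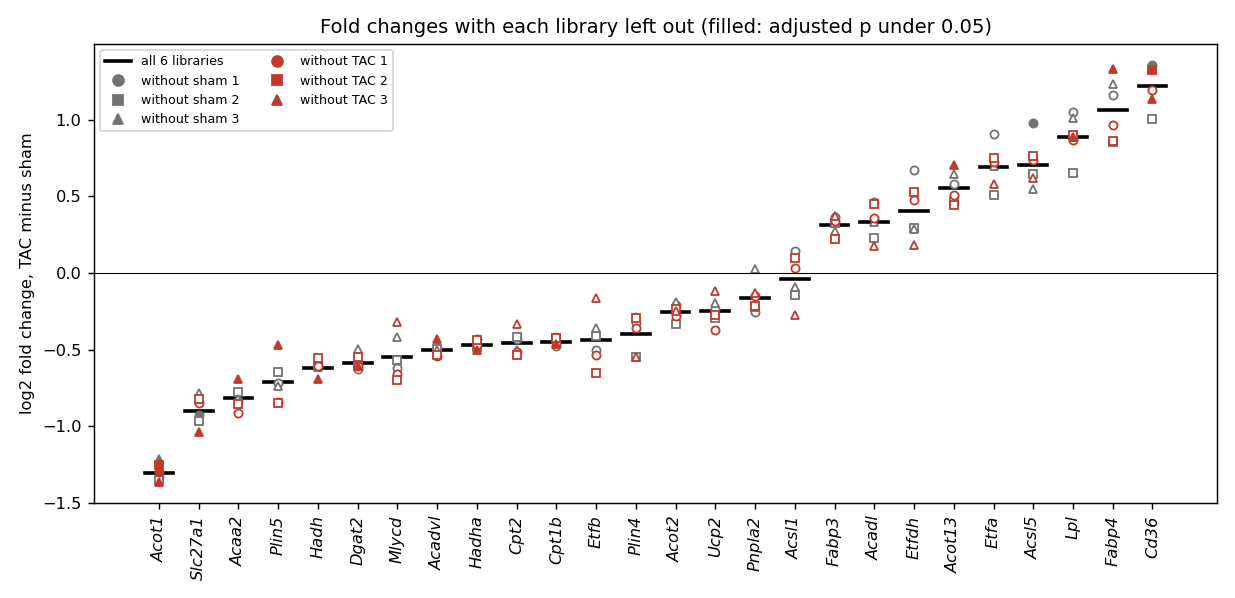
Log2 fold change (TAC minus sham, y axis) of the members with the highest levels in each role and of those that passed, with all 6 libraries (black bars) and with each library left out (symbols, filled where the adjusted p was under 0.05). Acot1 stays between -1.21 and -1.37, whereas Acsl1 and Pnpla2 cross 0.

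The fold changes ran with GC content, over the members and over all genes. Pearson's r between GC content and log2 fold change was -0.66 (Spearman's rho -0.62) over the 41 members and -0.43 (rho -0.49) over 8790 tested genes, across genes of the same 6 libraries, which are not independent replicates. Of the 12 members under 48% GC, such as Cd36, Fabp4, Lpl and Etfa, 9 had a log2 fold change above 0, with a median of 0.37 beside 0.40 for all tested genes of that range. Acot1, at 46.9% GC, is in the same range and went the other way, with the largest fall of the members. Of the 13 members at 54% or more, such as Slc27a1, Dgat2 and Plin5, none was above 0, with a median of -0.40 beside -0.17 for all tested genes of that range.

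After removal of the trends with GC content and length, fitted library by library, Slc27a1, Acaa2, Hadh and Acot1 still passed (log2 fold changes of -0.69, -0.78, -0.55 and -1.50, edgeR adjusted p of 0.0479, 0.0173, 0.0295 and 0.00423). Cd36 (0.58, adjusted p = 0.0638) and Dgat2 (-0.39, adjusted p = 0.102) did not. Then 4 of 41 members were lower and none was higher, against 2.54% and 2.76% of all tested genes. Below 0 lay 31 of 41 members, against 4355 of all 8795 tested genes. Beta-oxidation genes were then below 0 in 12 of 13, with a median of -0.38, where Acadm alone was above 0 (0.22).

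**Figure D5:**
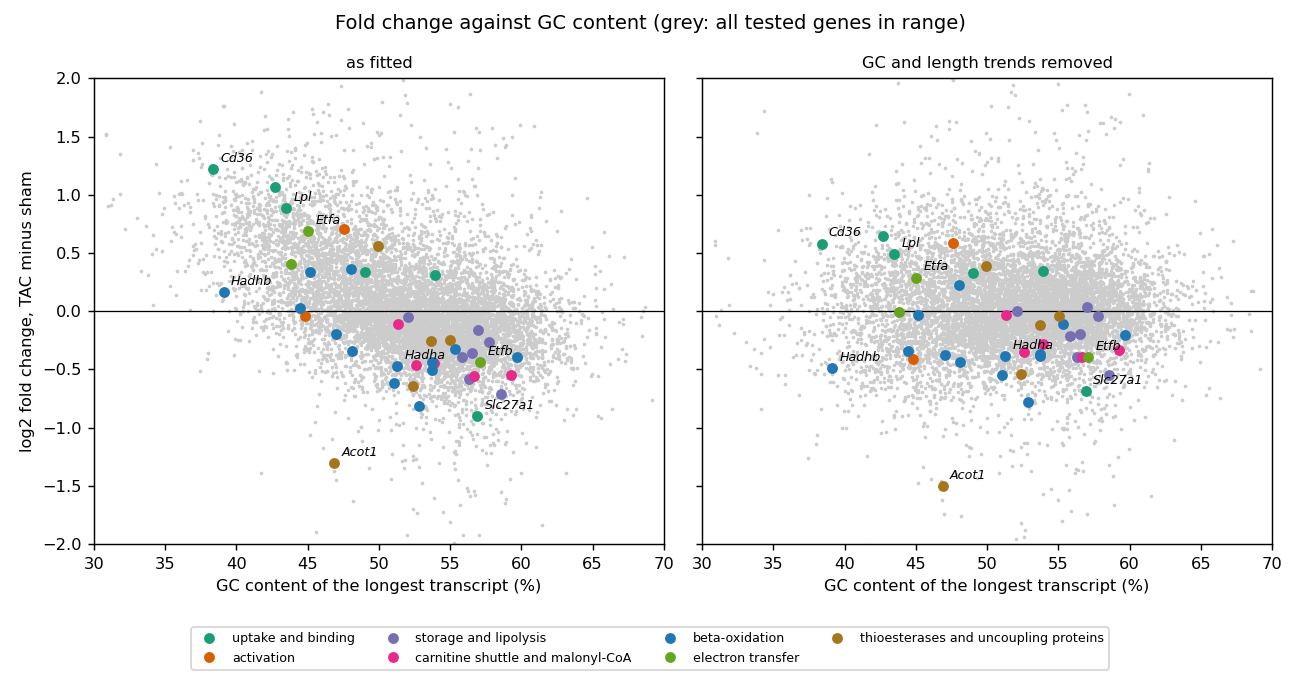
Log2 fold change (TAC minus sham, y axis) against the GC content of the longest transcript (x axis), as fitted at left and with the trends over GC content and length removed at right. Coloured points are the 41 members by role and grey points all other tested genes within the axes. Cd36 and Hadhb lie at the GC-poor end, and Hadhb moves from above 0 to below 0.

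Other genes of the pathway that are not members were counted in the same fit. Of 56 such genes 47 were tested, 5 fell, 1 rose and 41 did not pass, with a median log2 fold change of 0.04. Of all tested genes 2.29% fell and 4.71% rose. Crat, which encodes carnitine acetyltransferase, fell (-0.73 ± 0.13, edgeR adjusted p = 0.0258), as did the carnitine carrier gene Slc25a20 (-0.66 ± 0.13). Fitm2, a gene of lipid droplet formation, Agpat3, an acyltransferase of phospholipid and triglyceride synthesis, and Got2, an aminotransferase that also binds fatty acids, fell by 0.66, 0.61 and 0.70 on the log2 scale. The mitochondrial thioesterase gene Acot9 rose from 4.99 ± 0.737 to 9.38 ± 0.974 CPM (0.91 ± 0.19). After removal of GC and length trends Crat, Slc25a20 and Fitm2 still passed. Acot9 (0.54, edgeR adjusted p = 0.110), Agpat3 (adjusted p = 0.109) and Got2 (adjusted p = 0.0525) did not. In that fit Fitm1 (-0.76, adjusted p = 0.0264), Slc22a5 (-0.66, adjusted p = 0.0365), Ech1 (-0.54, adjusted p = 0.0456) and Hsd17b10 (-0.50, adjusted p = 0.04999) also passed as lower. Of all tested genes 2.54% were lower there. The 6 genes called before that removal all passed without TAC replicate 3, Crat and Acot9 also without sham replicate 1. None of the 6 passed without any other single library.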

How the data were processed

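Left ventricle RNA of 3 sham and 3 TAC libraries was analysed from a single table. The submitters' processing notes name cutadapt 1.9, HISAT2 2.0.4, StringTie 1.3.4d and the build GRCm38. The sources used here give no settings, annotation release or use of strand. The authors deposited FPKM and estimated counts (whole numbers, per the file headers one column per library). How these counts were derived is likewise not stated.

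Members and gene lists were chosen with earlier results of these data known. Values in every library are given for members that passed and for the 3 others with the highest FPKM in each role; the remaining members are given by range, some also by library, and of the other pathway genes those that passed. Genes averaging at least 1 FPKM were tested with edgeR 4.0.16 (TMM, estimateDisp, glmQLFit, glmQLFTest; R 4.3.3) and Benjamini-Hochberg adjustment over all 8795. The SE is the log2 fold change divided by the square root of F, an approximation. GC content and length came from GENCODE M21 transcripts, found for 24532 of 24602 identifiers; offsets for edgeR came from lowess trends (span 0.3, 3 rounds). Alternatives were DESeq2 1.42.0, limma 3.58.1 on log2(FPKM + 1) or log2(FPKM + 0.1), other scalings and filters, the replicate number as a block, leaving out each library and, chosen after seeing the data, overlapping records added together. The fit was tested on simulated data, where it recovered 64% of 100 genes changed 2-fold and 99% of 100 genes changed 4-fold. Of 177 genes called there, 14 were unchanged. The simulated counts held no trend with GC content and no library set apart from its group, so the check does not cover those conditions.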

Additional observations from a re-analysis of the deposited data

How the results depend on the processing

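Of 41 tested members, 33 kept the direction of their log2 fold change under all 17 alternatives that gave a value. The main count was 1 higher and 5 lower members and 615 called genes of 8795 tested (414 higher and 201 lower). DESeq2 gave 6 higher and 10 lower members and 1648 called genes (1031 higher and 617 lower). Limma gave 1 higher and 10 lower members with either pseudocount. It moved the median log2 fold change of all tested genes to -0.13 (pseudocount 1) and -0.16 (pseudocount 0.1). There 174 genes were higher and 338 lower, and 170 and 336, against 414 and 201 in the main fit. With GC and length trends removed the split was 243 and 223, with 0 higher and 4 lower members. Without the filter on FPKM there were 0 higher and 2 lower members and 168 called genes (91 higher and 77 lower). With a mean FPKM of 5 or more there were 1 higher and 3 lower members and 211 called genes (143 higher and 68 lower). How many genes were tested in those fits is not given here. Leaving out 1 library gave 0 to 5 higher and 0 to 10 lower members and 12 to 1705 called genes. The lowest values came without sham replicate 2 (9 genes higher and 3 lower) and the highest without TAC replicate 3 (813 and 892). The causes were not tested.

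The replicate number as a block gave 1 higher and 2 lower members and 183 called genes (141 higher and 42 lower). Acaa2 (edgeR adjusted p = 0.0622), Hadh (0.0847) and Dgat2 (0.0968) were no longer called. The replicate block with GC and length trends removed gave 0 higher and 3 lower members and 168 called genes (112 higher and 56 lower). Same-numbered libraries correlated at -0.102, 0.141 and -0.0619 in their deviations from the group means, and 1 of 3 sham and 1 of 3 TAC libraries correlated best with its own number, so the labels' numbers were not treated as pairs.

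Members whose sign changed were all without a call. With GC and length trends removed the log2 fold change was 0.0389 for Pnpla2, -0.0306 for Acadl, -0.486 for Hadhb, -0.343 for Decr1 and -0.00756 for Etfdh. With the replicate block added these were 0.0612, -0.0455, -0.486, -0.344 and -0.000528. Decr1 had -0.113 and -0.115 in limma (pseudocounts 1 and 0.1) and -0.0704 without the filter. With a mean FPKM of 5 or more Acsl1 had 0.048 and Plin2 0.0266. Leaving out 1 library gave a range of -0.272 to 0.146 for Acsl1, -0.255 to 0.0242 for Pnpla2, -0.171 to 0.105 for Plin2, -0.357 to 0.109 for Cpt1a and -0.0533 to 0.117 for Decr1.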
